A study of Mus musculus with 4 samples.

Results

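Rib chondrocytes of mice homozygous for the V194D mutation in *Matn3* were compared with wild type chondrocytes across gene families of the whole genome. Matrilin-3 is a bridging protein of the cartilage matrix, and V194D, a knock-in model of multiple epiphyseal dysplasia (EDM5), leads to misfolded matrilin-3 that is kept in the endoplasmic reticulum. The comparison uses 2 of the 4 arrays of the study, namely wild type (Xbp1WT) and *Matn3* mutant (Xbp1WT Matn3V194D), with 1 whole-genome expression array each. The other arrays were of the XBP1 null, where Cre driven by the *Col2a1* promoter deletes exon 2 of *Xbp1* in chondrocytes, and of the double mutant, which carries that deletion together with *Matn3* V194D. All mice were on the C57BL6/J background and aged 5 days. Chondrocytes were freed from costal cartilage of pooled litters by collagenase, and RNA of 3 extractions was pooled for each array. No source used here tells whether wild type mice carried floxed *Xbp1* or Cre.

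Chondrocytes of a young rib proliferate, secrete a matrix rich in type II collagen and aggrecan, and then enlarge into hypertrophic cells before bone is laid down. Each of these steps draws on large gene families, from the machinery of mitosis and of ribosome assembly to the signalling proteins that pace the growth plate. The lists of the unfolded protein response and of the heat shock response are not among the families described here, although 6 of their genes, *Asns* among them, are also members of other families. Each genotype was measured on a single array, so every difference is between a pair of pools, without replicates, an error or a test. A signal is the deposited linear value of a probe set. A log2 difference is *Matn3* mutant minus wild type unless stated otherwise, and a gene was counted as higher or lower where the signals differed by over 1.5-fold.

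Of 18193 genes measured, 3854 were counted as higher in the *Matn3* mutant (21.2%) and 3508 as lower (19.3%). For the double mutant against the XBP1 null, a pair of arrays that shares no RNA with the former pair, the shares were 16.6% and 16.9%. Dim genes gave most of these calls, as the plot of difference against brightness shows. In 5 equal bins of mean signal, 62.0% of genes differed by over 1.5-fold in the bin next to the dimmest and 21.3% in the brightest bin. Among the 9097 genes at or above the median brightness, called bright genes from here on, 1055 were higher (11.6%) and 1439 were lower (15.8%), and their median difference was -0.07. The corresponding shares for the double mutant against the XBP1 null were 4.64% and 8.24%. Where a bright gene past 1.5-fold had a further probe set, 902 of 1509 (59.8%) also passed 1.5-fold the same way by another probe set. For 261 of the 1509, another probe set passed 1.5-fold the other way. The *Matn3* mutant array held the lowest of the 4 signals for 44.3% of bright genes and the wild type array for 36.5%. Y-linked genes differed between the pools. *Eif2s3y* gave 484 for wild type, 665 for XBP1 null and 855 for double mutant chondrocytes but under 1 for those of the *Matn3* mutant, while *Xist* was present in every pool (7393 and 9718 in wild type and *Matn3* mutant). The sexes of the mice are not given. For any other gene, the sex make-up of the pools and the genotype thus cannot be told apart.

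**Figure D1:**
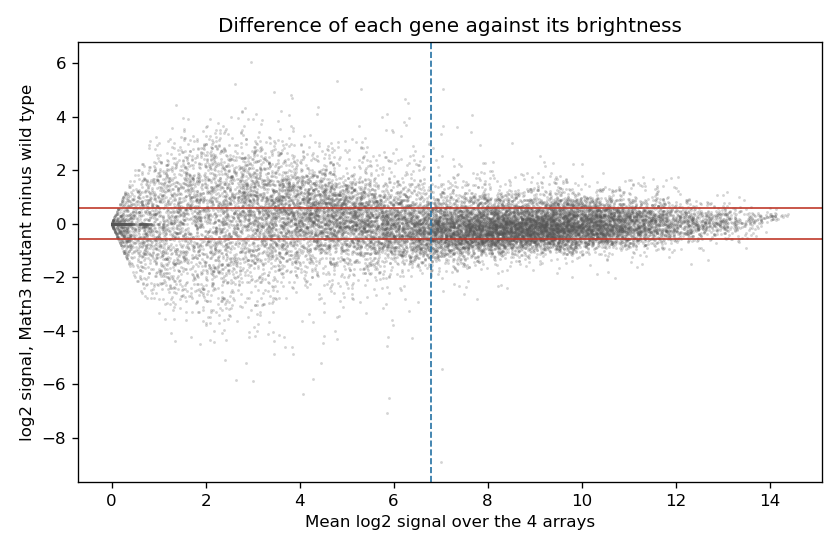
Each point is 1 of 18193 genes, with its mean log2 signal over the 4 arrays on the x axis and its log2 difference, *Matn3* mutant minus wild type, on the y axis. The red lines mark 1.5-fold and the dashed line the median brightness, above which 11.6% of genes lay over the upper and 15.8% under the lower red line.

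The arrays carried the signature of cartilage. None of 19 chondrocyte markers was higher and 1 was lower, with a median difference of 0.04. The mutated gene itself, *Matn3*, had a signal of 10185 in wild type and 10462 in the mutant, so its transcript was measured at nearly the same level. *Col2a1*, the chain of type II collagen, had 10187 and 13380.1, *Acan*, the core of aggrecan, 7475 and 9275, *Comp*, a matrix glycoprotein that binds collagen, 14727 and 17926, and *Sox9*, the master factor of chondrocytes, 3826 and 3765. The member below 1.5-fold was *Matn1*, a sister matrilin, with 2622 and 1494. Of the 40 genes nearest to *Matn3* on chromosome 12, 20 on each side, 6 were higher and 10 lower, with a median of -0.21.

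Lists of 111 families, with 4047 distinct genes, were set against these shares. In 4 families the median member was over 1.5-fold higher (endothelial markers, prostaglandin synthesis and receptors, serine and one-carbon metabolism, and protocadherins), and in 4 it was over 1.5-fold lower (replication-dependent histones, HOX genes, spindle and kinetochore genes, and mitotic kinases and cyclins). For the double mutant against the XBP1 null the corresponding numbers of families were 0 and 3. The plot of family medians shows 20 of these families with all members.

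**Figure D2:**
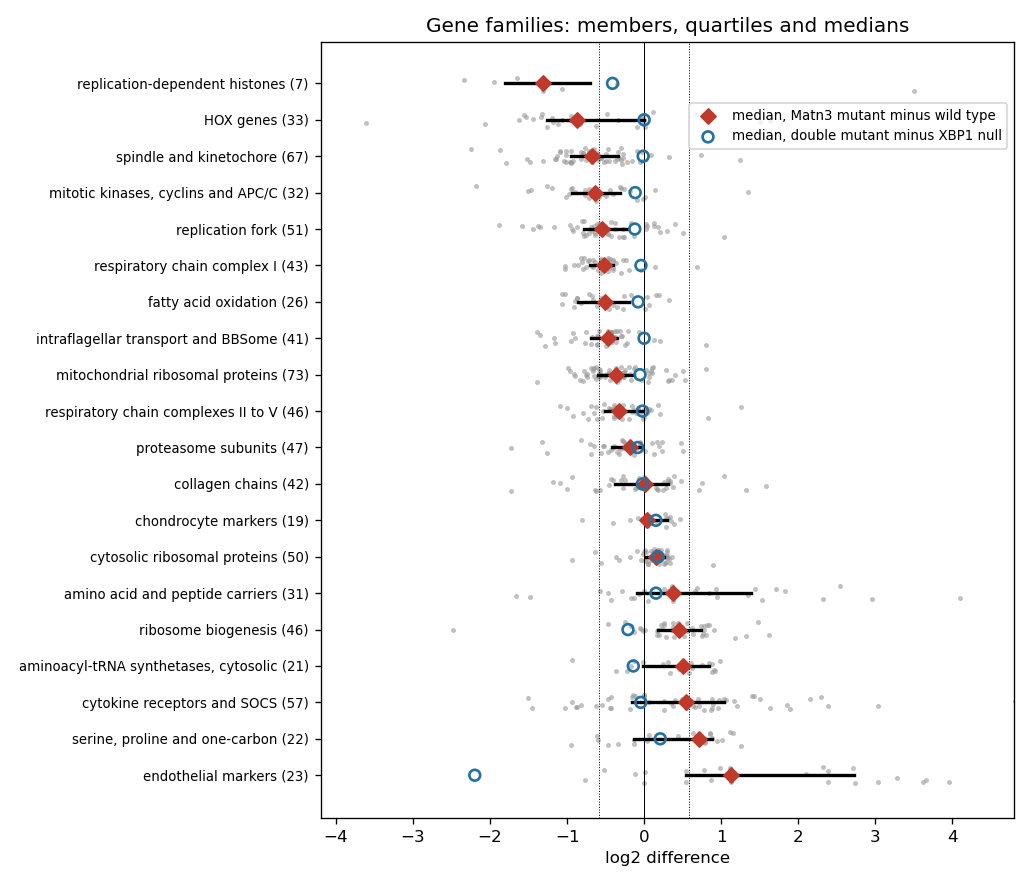
For 20 families, named with their number of measured members, grey points are the log2 differences of single genes (*Matn3* mutant minus wild type), black bars span the quartiles, red diamonds are medians, and blue circles are the medians of the double mutant minus the XBP1 null. Dotted lines mark 1.5-fold. Cell cycle, HOX and mitochondrial families lie to the left of 0 and biosynthetic families to the right, while most blue circles lie near 0. There is 1 member of a family beyond the axis.

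Genes that build the mitotic spindle and attach chromosomes to it were lower in the *Matn3* mutant as a group. Of 67 spindle and kinetochore genes, 41 were lower and 2 higher, and the median was -0.68. Of 32 mitotic kinases, cyclins and subunits of the anaphase-promoting complex, 19 were lower and 1 higher, with a median of -0.63. Together the lists hold 99 genes, of which 92 had a lower signal in the mutant and 60 were past 1.5-fold, against 19.3% of all genes. With quantile normalization both medians came to -0.58, just under 1.5-fold. In bulk RNA, fewer dividing cells and less of these transcripts per cell cannot be told apart.

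The kinetochore gene *Nuf2*, part of the complex that grips microtubules, had signals of 626 for wild type, 218 for *Matn3* mutant, 394 for XBP1 null and 122 for double mutant chondrocytes. Its partner *Spc25* had 946, 339, 676 and 480.0 in the same order. Both were thus lower in the *Matn3* mutant than in wild type, by 2.87-fold and 2.79-fold. *Sgo2a*, which guards cohesion at the centromere, was 3.66-fold lower (239 and 65.3), *Spag5*, a spindle protein, 2.22-fold lower (229 and 103), and *Kif20a*, a kinesin of cytokinesis, 2.22-fold lower (231 and 104). *Ska3*, of the outer kinetochore, went the other way with 95.6 and 227. Among regulators, *Ccna2*, which encodes cyclin A2, had 775 and 324, *Aurka*, the kinase aurora A, 319 and 139.6, and *Plk1*, polo-like kinase 1, 168 and 83.3. *Fbxo5*, an inhibitor of the anaphase-promoting complex, had 278 and 100.2, *Ube2c*, its ubiquitin-conjugating enzyme, 1083 and 553, and *Ccnb2*, cyclin B2, 1046 and 542. The proliferation marker *Mki67* had signals of 1668 and 964, and *Top2a*, the topoisomerase of dividing cells, of 1452 and 1044, the latter under 1.5-fold by its brightest probe set and at -1.53 by the median over probe sets.

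Promoters of mitotic genes often carry a CHR element (TTTGAA) close to the start of transcription and CCAAT boxes upstream of it, an arrangement read by the DREAM and MuvB complexes and by NF-Y. Both motifs were searched on both strands in windows from 250 bases before to 50 after the RefSeq start (GRCm38.p6), where they can share at most 1 base at their ends. A promoter was found for 84 of the 99 mitosis genes. TTTGAA was present in 54.8% of these, in 58.8% of the 51 among them that were past 1.5-fold lower, and in 18.1% of all 27025 promoters. CCAAT was present in 66.7%, 68.6% and 37.9%, respectively. It was not particular to mitosis genes. CCAAT stood in 59.5% of replication fork, 58.3% of intraflagellar transport and BBSome and 57.9% of HOX promoters. For ribosome biogenesis and complex I the shares were 43.2% and 33.3%. Both motifs together were found in 37 of the 84 mitosis promoters and in 7.12% of all promoters. The 4 bright mitosis genes with both motifs and the lowest difference are printed here to show how the motifs lie in such promoters. Capitals mark TTTGAA and CCAAT or their reverse complements TTCAAA and ATTGG, and each stretch is read 5′ to 3′ on the strand of the gene. The stretches are chr2:69206169-69206283 (minus strand) for *Spc25*, chr10:5805442-5805573 (minus strand) for *Fbxo5*, chr2:172370521-172370636 (minus strand) for *Aurka* and chr11:78301556-78301614 (plus strand) for *Spag5*.
*Spc25*: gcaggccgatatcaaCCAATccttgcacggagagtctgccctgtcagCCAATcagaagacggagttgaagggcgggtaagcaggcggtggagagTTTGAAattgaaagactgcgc
*Fbxo5*: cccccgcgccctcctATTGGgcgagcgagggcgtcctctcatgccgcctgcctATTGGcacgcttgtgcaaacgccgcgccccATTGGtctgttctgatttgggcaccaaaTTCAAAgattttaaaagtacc
*Aurka*: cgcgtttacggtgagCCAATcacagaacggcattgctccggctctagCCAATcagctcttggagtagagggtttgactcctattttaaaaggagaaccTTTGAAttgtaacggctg
*Spag5*: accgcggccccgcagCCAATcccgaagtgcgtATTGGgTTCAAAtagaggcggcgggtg
These genes had differences of -1.48, -1.47, -1.19 and -1.15, in that order.

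The replication fork and histones were on the same side. Of 51 replication fork genes, 23 were lower and 1 higher, with a median of -0.55. *Rfc2*, of the clamp loader, had 722 and 242, *Cdc7*, a kinase that fires origins, 414 and 152, and *Rpa3*, of the complex that coats single-stranded DNA, 958 and 369. *Pold1*, the catalytic subunit of polymerase delta, had 340.3 and 134, *Pold2*, its partner, 799.9 and 420.2, and *Mcm5*, of the replicative helicase, 1080.2 and 553. The E2F sites GCGGGAA and GCGCGAA were searched in the same windows and stood in 47.6% of 42 replication fork promoters, in 13.1% of the mitosis promoters and in 6.06% of all promoters. Among promoters of measured genes the share was 9.06%, and among those of bright genes 11.7%, near that of the mitosis promoters. Transcripts of replication-dependent histones mostly lack poly(A) tails, and 7 of these genes were measured, of which 5 were lower and 1 was higher. *H3c11* had 530.1 and 105, *H2bc21* 221 and 70.2, *H2bc22* 901 and 362 and *H2ac19* 1960.2 and 1537. The first 3 of these were past 1.5-fold.

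Among DNA repair genes, 14 of 50 were lower (28%, beside 19.3% of all genes) and 2 higher, with a median of -0.35. Of the 28 bright ones 4 were lower, a share not above the 15.8% of all bright genes. *Rad51ap1*, a helper of homologous recombination, had 346 and 145, whereas *Chek1*, the checkpoint kinase, had 381 and 663. Among 31 regulators of G1, 7 were lower and 3 higher, and the lower share of 22.6% was close to the 19.3% of all genes. *Ccnd3*, cyclin D3, had 1955 and 881 and its kinase *Cdk4* had 2189.7 and 1173, while the related kinase *Cdk6* was higher with 270.3 and 489. *Ccnd1*, cyclin D1, had 897 and 1254, and *Cdkn1c*, the inhibitor p57 of growth plate chondrocytes, had 5683 and 3932.

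The plot of array positions shows which arrays set these medians apart. For the 78 bright mitosis genes, the median signal relative to each gene's mean was 0.38 on the wild type array, -0.29 on the *Matn3* mutant array, 0.01 on the XBP1 null array and -0.07 on the double mutant array. The wild type array held the highest signal of the 4 for 66 of the 78 genes and the *Matn3* mutant array the lowest for 61. On the XBP1 null background, the median of the 99 genes was -0.04 for the double mutant minus the XBP1 null, with 2 higher and 7 lower. *Nuf2* was among the exceptions, since it was lower also in the double mutant (122) than in the XBP1 null (394). So were *Fbxo5*, with 115 in the double mutant and 228 in the XBP1 null, and *Ccna2*, with 412 and 711.

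**Figure D3:**
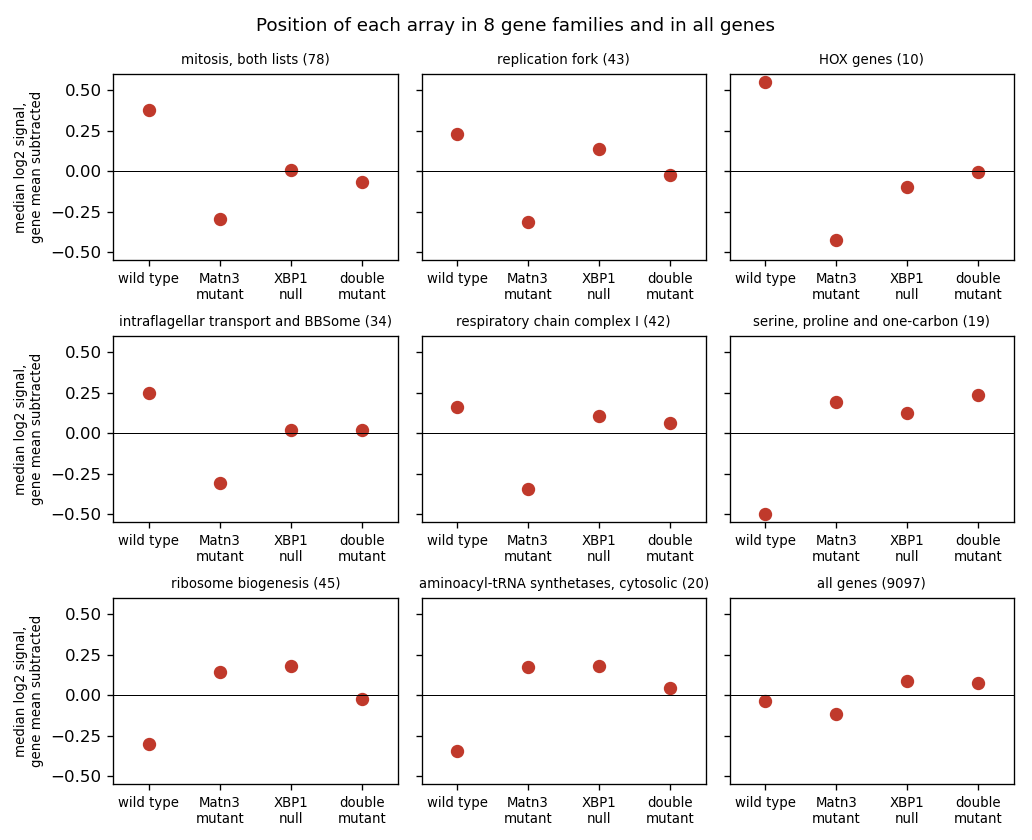
Each panel gives, for the bright members of a family (number in parentheses), the median over genes of the log2 signal after the mean of each gene over the 4 arrays was subtracted, with 1 point per array. The wild type and *Matn3* mutant arrays lie at the extremes in the mitosis, HOX and intraflagellar transport panels, the *Matn3* mutant array lies alone in the complex I panel, and the wild type array lies alone in the 3 biosynthesis panels.

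HOX genes, which give segments their identity along the body axis, gave the second lowest median of the 111 families. Of 33 measured, 19 were lower and 5 higher, with a median of -0.87. The HOXA, HOXB and HOXC clusters had medians of -0.96, -0.95 and -0.88, and the HOXD cluster of -0.02. However, 0 of 8 HOXD genes and 2 of 9 HOXB genes were bright, so the clusters cannot be compared at like brightness. Of the 10 bright HOX genes, all had a lower signal in the mutant and 8 were past 1.5-fold. *Hoxa5*, known for its role in patterning of the thoracic skeleton, had 2162 for wild type, 996 for *Matn3* mutant, 1198 for XBP1 null and 1207 for double mutant chondrocytes. *Hoxb2* had 368, 125, 221 and 199.7 in this order, *Hoxa7* 229, 90.1, 184 and 187, and *Hoxc6* 346, 144, 115 and 273. For *Hoxc6*, the signal of the XBP1 null was thus lower still than that of the *Matn3* mutant. *Hoxc5* was 2.50-fold lower in the *Matn3* mutant, *Hoxa3* 1.94-fold, *Hoxc4* 1.83-fold and *Hoxa2* 1.77-fold. *Hoxc8* (5971 and 4717) and *Hoxb3* (119 and 118) were the bright members under 1.5-fold. The wild type array held the highest of the 4 signals for 9 of these 10 genes. For the double mutant minus the XBP1 null the median of the 33 genes was 0.00.

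**Figure D4:**
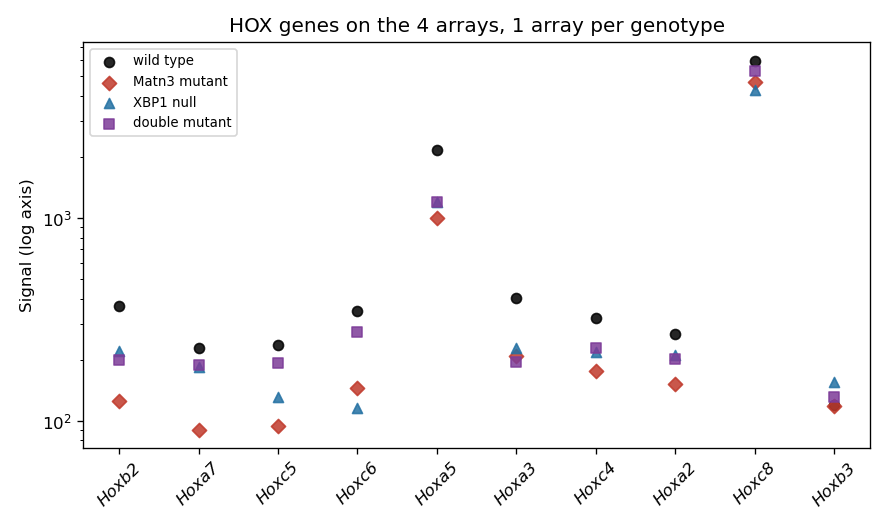
Signals of the 10 bright HOX genes on a log axis, ordered by the difference between *Matn3* mutant and wild type, with 1 symbol per array. For the leftmost 8 genes the wild type symbol lies over 1.5-fold above that of the *Matn3* mutant, and the double mutant and XBP1 null symbols lie mostly between them.

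Mitochondrial families had medians below 0, most evenly so for complex I. Complex I of the respiratory chain passes electrons from NADH into the chain, and 41 of its 43 subunits and assembly factors had a lower signal in the *Matn3* mutant. Past 1.5-fold were 16 lower and 1 higher, with a median of -0.52 and quartiles of -0.70 and -0.41. *Ndufb10* had signals of 1963 and 967, *Ndufa5* of 1626 and 863, *Ndufa3* of 4247 and 2338 and *Ndufs7* of 1336 and 759. The assembly factors *Ndufaf3* and *Ndufaf5* had 336 and 165 and 294 and 168. The *Matn3* mutant array held the lowest of the 4 signals for 40 of the 42 bright members, so here it stood apart from the 3 other arrays. Without XBP1, no member was past 1.5-fold either way in the double mutant, and the median was -0.04.

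Complexes II to V had a median of -0.32, with 9 of 46 lower and 2 higher, a share of lower genes close to the 19.3% of all genes. The subunits of ATP synthase *Atp5k* (2090.0 and 977) and *Atp5j* (4377 and 2304) and the complex III subunit *Uqcr11* (1757 and 1017) had the lowest differences among bright members. Mitochondrial ribosomal proteins, which translate the mitochondrial genome, had a median of -0.37, and 20 of 73 were lower against 1 higher. *Mrpl34* gave 646 and 246 and *Mrpl18* 795 and 400.0. Enzymes of fatty acid oxidation had a median of -0.51, with 12 of 26 lower and none higher. *Etfb*, which carries electrons from acyl-CoA dehydrogenases, had 977 and 468, *Acads*, a dehydrogenase for short chains, 169 and 89.7, and *Hadha*, of the trifunctional protein, 425 and 229. Pathways that feed the chain were closer to all genes, as 19 glycolytic genes had a median of -0.25 with 3 lower and 1 higher, and 23 genes of the tricarboxylic acid cycle a median of -0.29. *Hif1a*, the regulator of the response to low oxygen, had 8653 and 11601, and 25 hypoxia response genes had a median of -0.13. The value of *Hif1a* is that of its brightest probe set, whereas the paper lists the gene as decreased in the *Matn3* mutant.

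Genes of the primary cilium, the antenna on which hedgehog signals are received in growth plate chondrocytes, formed a further lower group. Of 41 genes of intraflagellar transport, the BBSome and the transition zone, 17 were lower and 1 was higher, and 38 had a lower signal in the mutant. The median was -0.47, against -0.00 for the double mutant minus the XBP1 null. *Ift27*, a small GTPase of the transport train, had 765 for wild type, 292 for *Matn3* mutant, 725 for XBP1 null and 569 for double mutant chondrocytes. *Bbs2*, a core subunit of the BBSome, had 269.8 and 121, and the transition zone genes *Tmem216*, *B9d2*, *Mks1* and *Tctn1* were 2.45-fold, 2.25-fold, 1.92-fold and 1.89-fold lower. Tubulins were mixed, with 6 of 16 lower and 3 higher. *Tubb4b*, a beta-tubulin of axonemes, had 3102 and 1470.0, and *Tuba4a*, an alpha-tubulin, 768 and 1107. Hedgehog and PTHrP pathway genes showed little, with a median of -0.26 over 19 genes. The hedgehog target *Gli1* had 173 and 119 and the pathway inhibitor *Sufu* 205 and 142, the latter at 0.87 by the median over probe sets. *Ihh* was dim on both arrays (17.1 and 32.8), and *Pth1r*, the receptor of PTHrP, had 1235 and 1033.

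On the other side were genes that make ribosomes, charge tRNAs and supply amino acids. Of 46 nucleolar genes of ribosome biogenesis, 15 were higher in the *Matn3* mutant and 1 was lower, with a median of 0.46. *Polr1b*, the second largest subunit of RNA polymerase I, had signals of 128 for wild type, 395 for *Matn3* mutant, 282 for XBP1 null and 197 for double mutant chondrocytes. The nucleolar helicase *Ddx21* had 512, 1275, 1033 and 918 and *Noc3l*, which helps export of the large subunit, 136, 381, 347 and 208, in the same order. *Tsr1*, *Gnl3* and *Nop14*, which mature or shuttle preribosomes, were 2.26-fold, 1.87-fold and 1.80-fold higher. Cytosolic ribosomal proteins themselves had a median of 0.15, with 1 of 50 higher and 2 lower. Without XBP1 the median of ribosome biogenesis was -0.21, with 0 higher and 6 lower.

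Cytosolic aminoacyl-tRNA synthetases, which load each tRNA with its amino acid, had a median of 0.50 over 21 genes, with 9 higher and 1 lower. *Iars*, for isoleucine, had 2434 and 4817, *Gars*, for glycine, 3121 and 5883, and *Lars*, for leucine, 1429.8 and 2675. *Cars*, *Yars* and *Nars*, for cysteine, tyrosine and asparagine, were 1.85-fold, 1.84-fold and 1.80-fold higher. Of 22 genes of serine, proline and one-carbon metabolism, 12 were higher and 3 lower, with a median of 0.71. *Psat1*, of serine synthesis, had 1014 and 2431, *Asns*, asparagine synthetase, 3221 and 5942, and *Cth*, which makes cysteine, 1955 and 3925. *Aldh1l2*, a mitochondrial folate enzyme, had 439 and 974, and the transaminases *Gpt2* and *Got1* had 525 and 1138 and 697 and 1337. Many of these enzymes are known targets of ATF4.

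Carriers of amino acids and peptides were higher in 14 cases and lower in 2 of 31, with a median of 0.37. *Slc7a1*, a carrier of arginine and lysine, had 1676 for wild type, 5494 for *Matn3* mutant, 4969.6 for XBP1 null and 4651 for double mutant chondrocytes. *Slc38a1*, for glutamine, had 49.2, 383, 435 and 344, *Slc1a1*, for glutamate, 97.3, 485, 316 and 387, and *Slc6a9*, for glycine, 119.9, 427, 242 and 477. The log2 difference of *Slc38a1* came to 1.86 by the median over probe sets and to 0.76 without those that can cross-hybridize. *Slc7a3*, for cationic amino acids, was 2.89-fold higher and *Slc1a4*, for neutral ones, 2.55-fold higher. For *Slc7a1*, *Slc38a1* and *Slc1a1* the wild type signal was thus the low value among the 4 arrays. All 334 solute carriers together had a median of 0.08, with 89 higher and 49 lower.

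The same position of the wild type array held for the biosynthetic families as groups. Relative to each gene's mean, the bright ribosome biogenesis genes stood at -0.30 in wild type and at 0.14, 0.18 and -0.02 in the *Matn3* mutant, XBP1 null and double mutant. For tRNA synthetases the values were -0.34, 0.18, 0.18 and 0.05, and for serine and one-carbon genes -0.50, 0.19, 0.13 and 0.24. The wild type pool was the lowest of the 4 for 33 of 45, 14 of 20 and 12 of 19 bright genes of these families. With 1 wild type pool, its own state at collection and an effect of the genotypes cannot be told apart.

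The bulk of the cartilage matrix was measured at similar levels on both arrays, with exceptions among single hypertrophic and fibrous genes. Of 42 collagen chains, 5 were higher and 7 lower, with a median of 0.01. *Col10a1*, the collagen of hypertrophic chondrocytes, had 831 for wild type, 250.1 for *Matn3* mutant, 1370.2 for XBP1 null and 223 for double mutant chondrocytes. *Col1a1*, of bone and perichondrium, had 4591 and 2398 and *Col5a2*, which joins type I fibrils, 5444 and 3545. Their partner chains *Col1a2* and *Col5a1* had differences of 0.26 and -0.02. *Col25a1*, a transmembrane collagen, had 228, 469, 329 and 721 across the arrays in the order wild type, *Matn3* mutant, XBP1 null and double mutant. Among 26 other cartilage matrix genes, *Otor*, a secreted protein of cartilage and inner ear, had 2198 and 989.9, while *Matn2*, a matrilin of many tissues, had 596 and 1141. Of 14 small leucine-rich proteoglycans, which coat collagen fibrils, 2 were higher and 2 lower. *Aspn*, asporin, had 3825 and 1972 and *Kera*, keratocan, 204 and 101. The hypertrophy list of 20 genes had 8 lower (40%, beside 19.3% of all genes) and 2 higher, with a median of -0.16. Its 17 bright members had a median of -0.01, with 6 lower and 2 higher. Besides *Col10a1*, *Mef2c*, a transcription factor that drives hypertrophy, had 512 and 210.1 and *Alpl*, alkaline phosphatase, 172 and 77.5. *Panx3*, a channel of prehypertrophic cells, had 1628 and 839. Higher were *Ank*, a pyrophosphate exporter, with 1668 and 3646, and *Sgms2*, with a difference of 0.89.

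Enzymes that build glycosaminoglycans had 9 of 42 members higher and 6 lower. *Chsy3*, a chondroitin synthase, had 389 and 944, *Has2*, the hyaluronan synthase, 3176 and 5544, and *Glce*, an epimerase for heparan sulfate, 1423 and 2849, whereas the chondroitin factor *Chpf* had 304 and 181 and the heparan polymerase subunit *Ext2* 481 and 292. The elastic fibre list was split as well. *Mfap2*, a microfibril glycoprotein, had 1946 and 749.9, *Fbln5*, which organises elastin, 250.3 and 735, and *Eln*, elastin, 2447 and 3046. Among 38 matrix proteases and inhibitors, *Mmp3*, stromelysin 1, had 1783 and 4696, *Adamts10*, a protease of microfibrils, 481 and 222, and *Timp3*, an inhibitor bound to the matrix, 2535 and 4072. By the median over probe sets, *Ext2* came to -0.06 and *Mfap2* to -0.57, under 1.5-fold, and *Eln* to -0.85. None of these families had a median past 1.5-fold.

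Signalling families were also divided. Of 20 BMP antagonists and feedback genes, 7 were lower and 2 higher, with a median of -0.37. *Grem1*, a secreted BMP antagonist, had 3354 for wild type, 952 for *Matn3* mutant, 1274 for XBP1 null and 1292 for double mutant chondrocytes, and *Bambi*, a decoy receptor, had 3262, 1197, 2783 and 1813 in that order. The BMP targets *Id3* and *Id4* had 7456 and 3923 and 3565 and 2052. Of 16 BMP ligands and receptors 5 were higher, among them *Acvr1*, a type I receptor (2292 and 4492), and *Bmp6* (589 and 1121), and *Gdf5*, a ligand of joints, had 330.3 and 192. *Inhba*, the subunit of activin A, had 2775, 6473, 7577 and 2403 on the 4 arrays, high in both *Matn3* mutant and XBP1 null.

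In the insulin-like growth factor axis, 6 of 20 genes were lower and 4 higher. *Irs2*, an adaptor of the insulin and IGF receptors, had 430.0 for wild type, 90.8 for *Matn3* mutant, 221 for XBP1 null and 68.0 for double mutant chondrocytes, and *Igf1*, the ligand, had 781 and 349.7 in wild type and *Matn3* mutant. *Igfbp5*, which binds IGFs, had 1032 and 474, and *Stc2*, stanniocalcin 2, which restrains release of IGFs, 253 and 608. WNT genes had 12 of 42 receptors, antagonists and targets lower and 7 higher. The antagonist *Sfrp2* had 1739 and 439.7, the receptor *Fzd2* 554 and 262 and the agonist *Rspo3* 1052 and 503, while *Ror1*, a receptor for WNT5A, had 137 and 291. Of 20 feedback genes of FGF and MAPK signalling, 6 were higher and 6 lower. The Sprouty and Spred inhibitors *Spry4* (104 and 406) and *Spred1* (1805 and 4235) were higher, and the phosphatases *Dusp16* (1315 and 610.5) and *Dusp8* (1457 and 709.9) were lower. The value of *Spred1* is that of its brightest probe set, whereas the paper lists the gene as lower in the *Matn3* mutant. *Fgfr3*, the receptor that slows proliferation in the growth plate, had 3529 and 4868. By the median over probe sets, *Spry4* came to 0.57 and *Ror1* to 0.39, under 1.5-fold. In the Notch list, *Jag1*, a ligand, had 321 and 749 and *Rfng*, a modifier of the receptors, 275 and 129. *Vegfa*, the factor that draws vessels into hypertrophic cartilage, had 1088, 2295, 1579 and 2636 on the 4 arrays in the order used above.

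Receptors of cytokines and genes of prostaglandin synthesis had higher medians than all genes, while the interferon response list did not. Of 57 cytokine receptors and SOCS genes, 27 were higher (47.4%, beside 21.2% of all genes) and 8 lower, with a median of 0.55. The 26 bright ones had a median of 0.44, under 1.5-fold, with 11 higher and 3 lower. *Il1r1*, the receptor of interleukin 1, had 205 for wild type, 1008 for *Matn3* mutant, 1039 for XBP1 null and 571 for double mutant chondrocytes, and *Osmr*, the receptor of oncostatin M, 1503, 4681, 5573 and 4139.7. For both, wild type was the low value and the 3 other arrays were higher, but by the median over its 3 probe sets *Osmr* came to -0.10. *Il15ra*, *Il4ra*, *Lifr* and *Il13ra1* were 3.61-fold, 2.83-fold, 2.65-fold and 2.24-fold higher in the *Matn3* mutant than in wild type, with *Lifr* at -0.16 and *Il13ra1* at 0.24 by the median over probe sets, and *Socs2*, an inhibitor of growth hormone signalling, had 2998 and 1572. Prostaglandin genes had a median of 0.88 over 17, with 9 higher and 3 lower, but only 6 of them were bright, with a median of 0.41, under 1.5-fold. Those included the enzymes in series that make prostaglandin E2, namely *Pla2g4a* (452 and 832), *Ptgs2* (5180.2 and 10967) and *Ptges* (384 and 1315). Ligands went both ways. *Csf2* had 430.0 and 1371, *Il11* 727 and 1805, *Clcf1* 323 and 894 and *Ccl5* 1935 and 5201, whereas *Ctf1* had 426 and 161, *Ccl2* 1441 and 604 and *Cxcl10*, an interferon target, 12053, 4273, 2644 and 5048 on the 4 arrays. The interferon response list of 34 genes had a median of -0.03 here and of -0.63 for the double mutant minus the XBP1 null.

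Markers of other cell types differed between the pools. Of 23 endothelial genes, 16 were higher in the *Matn3* mutant and 1 was lower, with a median of 1.13, but their signals were low. On the wild type array 18 of 23 were under 50, against 10 on the *Matn3* mutant array, 1 on the XBP1 null array and 7 on the double mutant array, and the summed signals were 1555, 2190, 10885 and 3323. *Cdh5*, the cadherin of endothelium, had 11.5 for wild type, 146 for *Matn3* mutant, 838 for XBP1 null and 221 for double mutant chondrocytes, and *Aplnr*, the apelin receptor, 11.7, 143, 1199 and 360.3. *Pecam1* was under 1 on every array but that of the XBP1 null, where it had 87.7. The endothelial median came to 2.32 with the median over probe sets in place of the brightest and to 2.11 without the probe sets whose suffix marks possible cross-hybridization. The protocadherin list, with a median of 0.69 over 35 genes, held only 6 bright genes, and their median of 0.22 was under 1.5-fold.

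Of 23 perichondrium, tendon and fibroblast genes, 7 were lower and 2 higher, and their summed signals were 82528 in wild type, 71811 in the *Matn3* mutant, 112769 in the XBP1 null and 94167 in the double mutant. *Thy1*, a surface marker of fibroblasts, had 169 and 41.3, *Scx*, a tendon factor, 197 and 92.6 (-0.24 by the median over its 2 probe sets), and *Tnmd*, tenomodulin, 4107 and 2605. Of these 23 genes 8 had a higher signal in the mutant. Skeletal muscle genes were under 50 for 22 of 29 in wild type and 25 of 29 in the *Matn3* mutant, erythroid genes for 10 and 12 of 15, and leukocyte genes for 21 and 20 of 28. The summed leukocyte signal was 3256 in wild type, 6432 in the *Matn3* mutant, 7479 in the XBP1 null and 5444.5 in the double mutant, lowest in wild type like *Il1r1* and *Osmr*. Most of this sum was *Cd14*, a receptor for lipopolysaccharide (1961, 5115, 6133 and 4066 in this order), while the general leukocyte marker *Ptprc* was under 50 on every array. The part of admixed cells in the differences of matrix, signalling and cytokine genes was not tested.

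The bright genes with the greatest differences included several at low signal in wild type. The 10 highest were *Apobr*, *Hao1*, *Cdh5*, *Aplnr*, *Bpifc*, *Cdsn*, *Pnpla3*, *Slc38a1*, *Plac8* and *Trim66*. *Apobr* had 11.3 and 371, *Hao1* 37.6 and 627 and *Trim66* 42.3 and 247. All of the 10 but *Pnpla3* had under 50 in wild type and count as bright through the other arrays, so the size of these differences rests on signals near the array median of 43.8 or below it. By the median over probe sets, *Cdh5*, *Aplnr* and *Slc38a1* came to 2.24, 2.48 and 1.86 on the log2 scale. For 7 of these 10, all but *Cdsn*, *Pnpla3* and *Trim66*, the XBP1 null array was also over 5-fold above wild type. *Pnpla3*, a lipase of lipid droplets, was by contrast high on both arrays that carry *Matn3* V194D, with 142 for wild type, 1149 for *Matn3* mutant, 144 for XBP1 null and 769 for double mutant chondrocytes. The 10 lowest were *Eif2s3y*, *Lce1d*, *Adm*, *Tnn*, *Rarres1*, *Mdfi*, *Gdap10*, *H3c11*, *Kcne4* and *Ankrd33b*. Of these, *Eif2s3y* is Y-linked, and the sex make-up of the pools is not given. *Lce1d*, a gene of the cornified envelope, had 1094 in wild type and 962 in the XBP1 null and was under 50 on both other arrays, by a single probe set whose suffix marks possible cross-hybridization, and *Tnn*, tenascin-W of the perichondrium, had 319.5, 51.0, 643 and 100.2 in the order wild type, *Matn3* mutant, XBP1 null and double mutant. *Adm*, adrenomedullin, a vasoactive peptide, had 562, 79.9, 285 and 185, and *Mdfi*, an inhibitor of MyoD family factors, 1102, 207, 232 and 252, where wild type stood alone. By the median over its 2 probe sets *Mdfi* came to -0.79. *Ankrd33b*, with 3 probe sets, came to -0.34 by their median.

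Part of the differences recurred on the XBP1 null background. Of the bright genes, 100 were over 1.5-fold higher in both *Matn3* comparisons, which is 9.48% of those higher with XBP1 and 23.7% of those higher without, where 4.64% of all bright genes were higher without XBP1. Lower in both were 171 genes, or 11.9% and 22.8%, beside 8.24% of all bright genes lower without XBP1. A further 206 genes were higher here and lower there, 19.5% of those higher here. The reverse held for 51 genes, 3.54% of those lower here, which is under the 4.64% of all bright genes. Over all 18193 genes, dim ones included, 35.4% of those higher here were also higher there, beside 16.6% of all genes. Of those lower here, 28.4% were also lower there, beside 16.9% of all genes. By count, 1363 genes were higher in both and 996 lower in both. Opposite ways went 810 genes higher here and lower there, and 418 genes lower here and higher there. Across the 9097 bright genes, Pearson's r of the differences was 0.02, and across all genes 0.21, as a description, since genes are not independent replicates. Of the genes shared by both comparisons, 10 of the 100 and 5 of the 171 belong to the stress response lists. Among the others, chosen after their values were seen, *Creld1*, a relative of the ER stress gene *Creld2*, had 92.3 for wild type, 255 for *Matn3* mutant, 125 for XBP1 null and 382 for double mutant chondrocytes. *Serpina3n*, a secreted protease inhibitor, had 1503, 3257, 821 and 4794 in that order. Among shared lower genes, *Rarres1*, a retinoid-responsive gene, had 354, 61.4, 307 and 45.9, and *Exosc9*, of the RNA exosome, 442, 153, 735 and 147. Together with *Col10a1*, *Alpl*, *Tnn*, *Thy1*, *Irs2*, *Nuf2* and *H3c11*, they were lower in both pools with *Matn3* V194D than in the pool of the same *Xbp1* genotype without it.

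**Figure D5:**
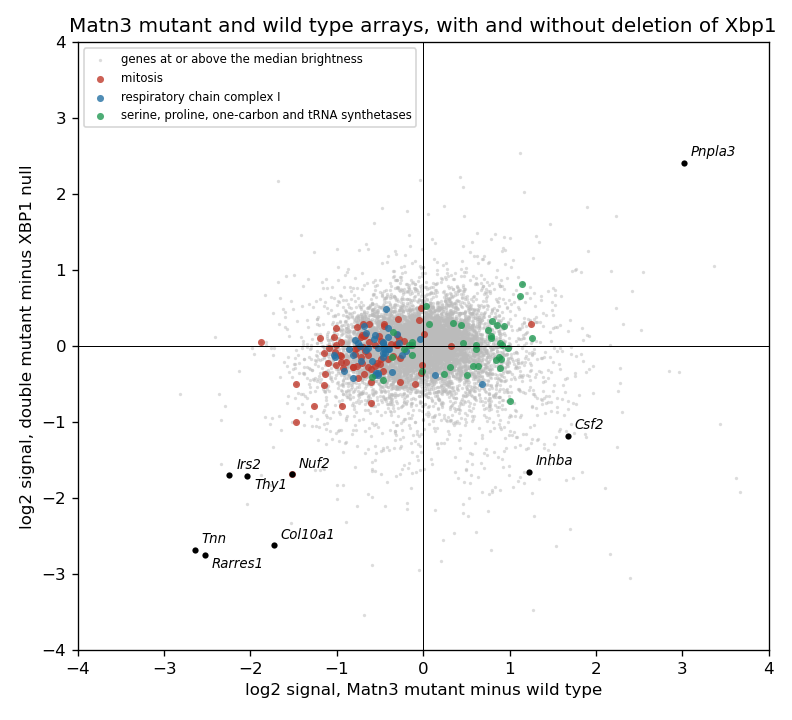
Each point is a bright gene, with its log2 difference between *Matn3* mutant and wild type on the x axis and between double mutant and XBP1 null on the y axis, where mitosis genes are red, complex I genes blue and serine, one-carbon and tRNA synthetase genes green. The coloured families spread along the x axis and stay near 0 on the y axis, while *Col10a1*, *Tnn* and *Rarres1* are low on both axes and *Pnpla3* is high on both. There are 4 genes beyond the axes.

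Not every family left out above was flat. Chemokine receptors had a median of 0.53, complement and coagulation genes of 0.47 and cadherins of 0.44. Skeletal muscle markers had -0.39 and glutathione, NRF2 and metallothionein genes -0.29. Of these, only 2 of 20 chemokine receptors, 4 of 21 cadherins and 3 of 29 muscle markers were bright. Schwann cell and neuron markers and osteoclast markers had 0.55 each, but -0.17 and -0.47 among their bright members. The families that follow had medians within 0.2 of 0. The 329 zinc finger genes named Zfp had 50 higher and 65 lower, with a median of -0.05. Proteasome subunits had 7 of 47 lower and none higher, with a median of -0.19, and the chaperonin CCT and prefoldin had none of 14 past 1.5-fold either way. Autophagy genes gave 1 higher and 2 lower of 41, immediate early genes 2 and 4 of 23, and circadian clock genes 2 and 2 of 21. Families with no known use in cartilage, mostly of dim genes, stand for comparison. Of 38 olfactory receptors, 10 were higher and 8 lower, and of 37 vomeronasal and taste receptors, 11 and 5, with medians of 0.00 in both.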

How the data were processed

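Per the labels, RNA of rib chondrocytes was hybridized to 1 Affymetrix 3′ expression array per genotype, giving 4 arrays. The authors deposited linear intensity values of 45037 probe sets. No source used here tells how they were summarized or normalized, and each array has a median of 43.8. The number of arrays limits the precision, which cannot be estimated with 1 array per group. The authors used the PPLR package, which needs errors of single probes and was not run here.

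Values under 1 were set to 1 and log2 was taken, without further scaling (Python 3.11.15, numpy 2.4.6, pandas 2.3.3). Of the probe sets, 34945 name 1 gene, 932 several and 9160 none. Probe sets with 1 gene cover 18193 genes, and the brightest by mean log2 over all 4 arrays stood for its gene. The threshold was 1.5-fold, with 2-fold as an alternative. The computation was tested on simulated data.

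The 111 families, the 67 genes of the stress lists, left out of the ranking of single genes, and the genes named were chosen with earlier results of these data known. Named genes were the 10 with the highest and the 10 with the lowest difference among bright genes, up to 6 bright members of a described family by absolute difference, members that complete a set, and a fixed list of 20 cartilage and growth plate genes. Genes named outside this rule were chosen after their values were seen. Genes of those lists without a measured value were not analysed here.

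No columns of other samples were present. Promoters are those of the RefSeq table of GRCm38.p6, the start site listed first for each gene, and 14452 of the measured genes had one.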

Additional observations from a re-analysis of the deposited data

Results flagged for a closer look

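The endothelial markers had medians of opposite sign in the 2 comparisons of the *Matn3* mutation. The median log2 difference was 1.13 for *Matn3* mutant minus wild type and -2.20 for double mutant minus XBP1 null. In the former 16 of 23 genes were over 1.5-fold higher and in the latter 21 of 23 were over 1.5-fold lower. The difference between the comparisons was not tested, since each side rests on 1 array per genotype. The wild type array held the lowest summed endothelial signal (1555) and the XBP1 null array the highest (10885).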

How the results depend on the processing

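The counts of genes over 1.5-fold higher (3854) and lower (3508) stayed within 1.5 times these values with centring, quantile normalization, a higher floor and the alternative rules for probe sets. Among genes at or above the median brightness they were 1055 and 1439, and with a threshold of 2-fold 2183 and 1618. The families with a median past the threshold, 4 higher and 4 lower, came to 2 higher among bright genes, to 2 lower with quantile normalization, and to 1 each at 2-fold. With quantile normalization the lists of spindle genes and of mitotic kinases passed under 1.5-fold, at -0.58 each. Of 654 medians of families under the alternatives, 649 moved by less than 1.5-fold. The exceptions were endothelial markers (1.75, 2.32 and 2.11 with the higher floor, the median over probe sets and without probe sets that can cross-hybridize), WNT ligands (0.64 without these probe sets, from 0.00) and osteoclast markers (-0.47 among bright genes, from 0.55). Of 1146 values of named genes, 1114 moved by less than 1.5-fold, 30 by more (*Sufu* and *Eln* with a change of sign, neither past 1.5-fold before), and 2 past 1.5-fold turned, *Osmr* (to -0.10) and *Lifr* (to -0.16), both by the median over probe sets. By the same median, genes that stayed past 1.5-fold on their side with a smaller difference were *Rfc2* (-0.85), *Aurka* (-0.60), *Mdfi* (-0.79), *Chsy3* (0.63), *Fbln5* (0.78), *Il1r1* (1.15), *Slc1a1* (1.04), *Slc1a4* (0.61), *Slc38a1* (1.86), *Cdh5* (2.24) and *Aplnr* (2.48), and those with a greater one *Panx3* (-2.16), *Dusp16* (-1.90) and *Glce* (2.26), while *Ptprc*, dim throughout, came to 1.67. *Slc38a1* came to 0.76 and *Pold1* to -1.97 without the probe sets named above. No paired analysis was possible because each genotype has 1 array and the result comes from no test.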
